A study of Bos taurus with 6 samples.

Results

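The genes described here are the aminoacyl-tRNA synthetases, the enzymes that attach each amino acid to its transfer RNA, in single bovine (Bos taurus) oocytes. They were chosen by gene symbol, with earlier results of these data known. A list of 35 symbols, 20 for cytosolic enzymes and 15 for mitochondrial enzymes (those whose name ends in 2), found 37 of the 20707 rows of the deposited expression table. CARS2 and NARS each name 2 rows, so there were 21 cytosolic and 16 mitochondrial rows. A row entered the test when its mean over the 6 libraries was at least 1 RPKM, that is, reads per kilobase of gene model and per 1 M mapped reads. This held for 26 rows, 18 cytosolic and 8 mitochondrial.

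A synthetase spends ATP to activate its amino acid and then transfers it to the matching transfer RNAs, which carry it to the ribosome. In animal cells most mitochondrial synthetases have nuclear genes of their own and are imported, whereas GARS and KARS each supply both compartments. Several cytosolic enzymes sit together in the multisynthetase complex, held by scaffold proteins. A fully grown oocyte transcribes little, and its translation during maturation draws on stored mRNA whose poly(A) tails are lengthened or shortened in the cytoplasm.

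The MII group consisted of 3 libraries of oocytes matured in vitro for 24 hours, with chromosomes at metaphase of the second meiotic division. The GV group consisted of 3 libraries of oocytes still in meiotic prophase, with an intact germinal vesicle, taken when the follicles were aspirated. All came from cumulus-oocyte complexes of abattoir ovaries, and the labels name no genetic change, drug or animal age. The study's title ties the comparison to cytoplasmic polyadenylation. RNA of individual oocytes was turned into cDNA with a low-input kit that primes on poly(A) tails, so a level combines how many transcripts were present with how well their tails were primed. Every level is relative to the total of its own library, with no spike-in.

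The libraries carry the names of their table columns, MII14c, MII15 and MII15c, and GV14, GV14c and GV15. The columns MII15c and GV14c match no sample title and were used as a library of the stage their name gives, while the titled samples MII14 and GV15c match no column. Nothing states that the oocytes came from separate animals, or whether the letter c marks a further oocyte or a repeat, so the p-values reflect only how far these 6 libraries vary, and would be too small if any were repeats. Depth recovered from the low values was 21.3 to 32.6 M reads for MII and 20.2 to 29.9 M reads for GV. MII15 held the fewest rows at 1 RPKM or more, 7170, against 7760 and 8087 in the other MII libraries and 8401 to 9304 in GV libraries. Adapters were diluted 1 in 50 for MII14c and MII15, against 1 in 30 for GV14 and 1 in 10 for GV15, per the labels, so among the 4 libraries that match a title dilution and stage cannot be told apart. All 10 oocyte markers passed the filter, and they summed to 3763 to 4620 RPKM in MII and 7382 to 10660 RPKM in GV. The 13 cumulus and granulosa marker rows, of which 4 passed the filter, summed to 108 to 116 RPKM in MII and 91.3 to 164 RPKM in GV, most of it HAS2 and STAR. HAS2 stood at 55.4 to 64.8 RPKM in MII, against 11.6 to 18.9 RPKM in GV, and STAR at 29.3 to 39.7 RPKM in MII, against 67.1 to 136 RPKM in GV, and the part of follicle cell RNA in the results was not tested. VCAN stood at 7.21 to 9.50 RPKM in MII, against 2.35 to 3.89 RPKM in GV, and PTGS2 at 5.16 to 11.3 RPKM in MII, against 3.80 to 5.85 RPKM in GV. Of these 4 tested rows, HAS2 and VCAN rose (limma adjusted p = 0.000685 and 0.0214), STAR fell (limma adjusted p = 0.00395) and PTGS2 did not pass the test. Among the 9 rows below the filter, FSHR, AMH, AMHR2 and PTX3 were at or near 0 in all 6 libraries. INHBA stood at 0.129 to 0.687 RPKM in MII and 0.171 to 3.61 RPKM in GV. CYP19A1 stood at 0.109 to 0.231 RPKM in MII and 0.213 to 0.395 RPKM in GV. TNFAIP6, INHA and CYP11A1 held at most 0.305 RPKM in any library. None of 12 rows of blood and stroma markers passed the filter, with sums below 1 RPKM in MII and up to 2.08 RPKM in GV.

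Of the 26 tested synthetase rows, 11 fell in MII relative to GV (42.3%, against 26.9% of all 8671 tested genes) and 3 rose (11.5%, against 13.4% of all tested genes) at a limma adjusted p under 0.05. The falls were cytosolic in 10 of 11 rows. Of the 18 tested cytosolic rows, 10 fell (RARS, FARSA, FARSB, SARS, HARS, MARS, NARS, QARS, TARS and AARS), 2 rose (IARS and DARS) and 6 did not pass the test. Of the 8 tested mitochondrial rows, SARS2 fell, RARS2 rose and 6 did not pass the test. The median log2 change, MII minus GV, was -1.10 over cytosolic rows, 0.10 over mitochondrial rows and -0.165 over all tested genes. All MII libraries lay below all GV libraries in 12 of the 26 rows and above them in 5. Over all tested genes 32.1% lay wholly below and 19.8% wholly above, so stages without overlap were common. In 5 of the tested rows, QARS, AARS, FARSA, SARS2 and YARS, the mean was at least 1 RPKM in GV and below it in MII, so they passed the filter through their GV level, and these counts describe the rows that passed. Without the 2 columns that match no title, with 2 libraries left per stage, 6 rows fell and 0 rose, the 6 being RARS, FARSA, FARSB, SARS, HARS and MARS.

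**Figure D1:**
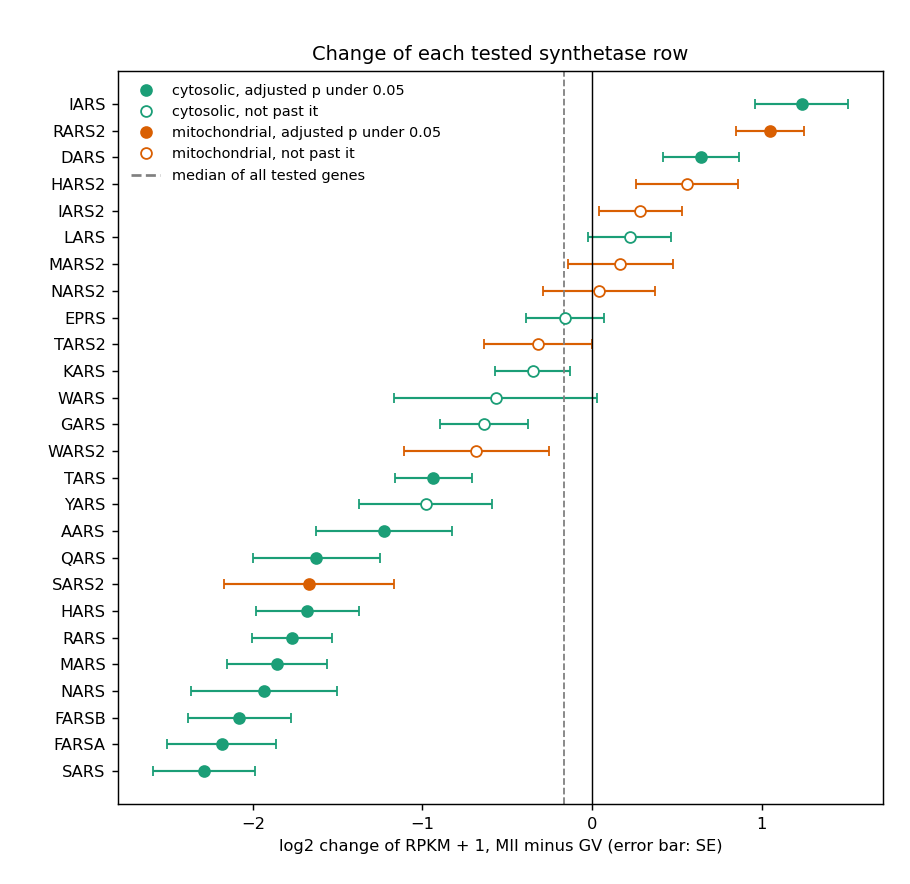
Log2 change of RPKM + 1, MII minus GV, for each of the 26 tested synthetase rows, with error bars of 1 SE from limma (n = 3 libraries per stage). Filled points passed the adjusted p threshold of 0.05 and the dashed line marks the median of all tested genes, -0.165. Most filled points lie left of 0 and are cytosolic, while IARS, RARS2 and DARS lie to the right.

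The arginyl enzymes had the highest synthetase mRNA levels by stage mean and changed in opposite directions, although FARSB lay above RARS2 in GV14 and GV15. RARS2, the mitochondrial arginyl-tRNA synthetase, stood at 237, 308 and 275 RPKM in the MII libraries, against 136, 115 and 144 RPKM in the GV libraries. Every MII library lay above every GV library. RARS2 averaged 274 ± 35.5 RPKM in MII and 132 ± 15.4 RPKM in GV (SD, n = 3 each), a log2 change of 1.05 ± 0.20 (SE; limma adjusted p = 0.00359). RARS, the cytosolic arginyl-tRNA synthetase of the multisynthetase complex, stood at 84.4, 48.8 and 61.7 RPKM in MII, against 207, 219 and 229 RPKM in GV. Here every MII library lay below every GV library. RARS averaged 65.0 ± 18.1 RPKM in MII and 218 ± 11.3 RPKM in GV (SD, n = 3 each), a log2 change of -1.77 ± 0.24 (SE; limma adjusted p = 0.000594). Ranked by mean RPKM over all genes of the table, RARS2 was number 206 in MII and 548 in GV, whereas RARS was number 955 in MII and 317 in GV. The call for RARS held under all 19 alternatives. That for RARS2 was lost under 1, the fit without the 2 columns that match no title (limma adjusted p = 0.0544).

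In the deposited annotation, whose genome build is not given in the sources used here, RARS2 (ENSBTAG00000016967) lies on the plus strand of chromosome 9, with its coding region from 63225472 to 63299190 in 20 coding exons. The transcript discovery in that annotation carries the gene 7161 nt past the end of the coding region, where it overlaps SLC35A1, a Golgi transporter gene on the opposite strand, by 3603 nt. Whether the counting used strand is not given in the sources used here, so reads in that overlap cannot be assigned to either gene. SLC35A1 itself stood at 15.6, 17.9 and 8.10 RPKM in MII and 14.99, 9.86 and 16.0 RPKM in GV, with the stages overlapping (limma adjusted p = 0.971). RARS (ENSBTAG00000014626) lies on the plus strand of chromosome 7, with its coding region from 82792872 to 82821972 in 15 coding exons and no overlap with another gene of the table.

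RARS2 made up most of the mitochondrial total. The 16 mitochondrial rows summed to 269.5, 332 and 300 RPKM in MII, against 166.5, 149 and 171 RPKM in GV, and RARS2 made up 88.1%, 92.8% and 91.5% of that sum in MII and 81.5%, 77.1% and 84.5% in GV. Without RARS2 the sum was 32.0, 23.9 and 25.5 RPKM in MII and 30.8, 34.0 and 26.5 RPKM in GV, with the stages overlapping. The 21 cytosolic rows summed to 406, 306 and 321 RPKM in MII, against 688, 643 and 689 RPKM in GV. They stayed below GV without RARS, at 321, 258 and 259 RPKM in MII and 481, 424 and 460 RPKM in GV. The mitochondrial share of the summed synthetase level was 39.9%, 52.0% and 48.3% in MII, against 19.5%, 18.8% and 19.9% in GV. For each of these sums except the mitochondrial sum without RARS2 (exact permutation p = 0.3), the stages did not overlap. Their two-sided exact permutation p was 0.1, and 3 libraries per stage cannot give a smaller one. After Benjamini-Hochberg adjustment over the 16 sums, shares and ratios tested this way, that p was 0.145.

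**Figure D2:**
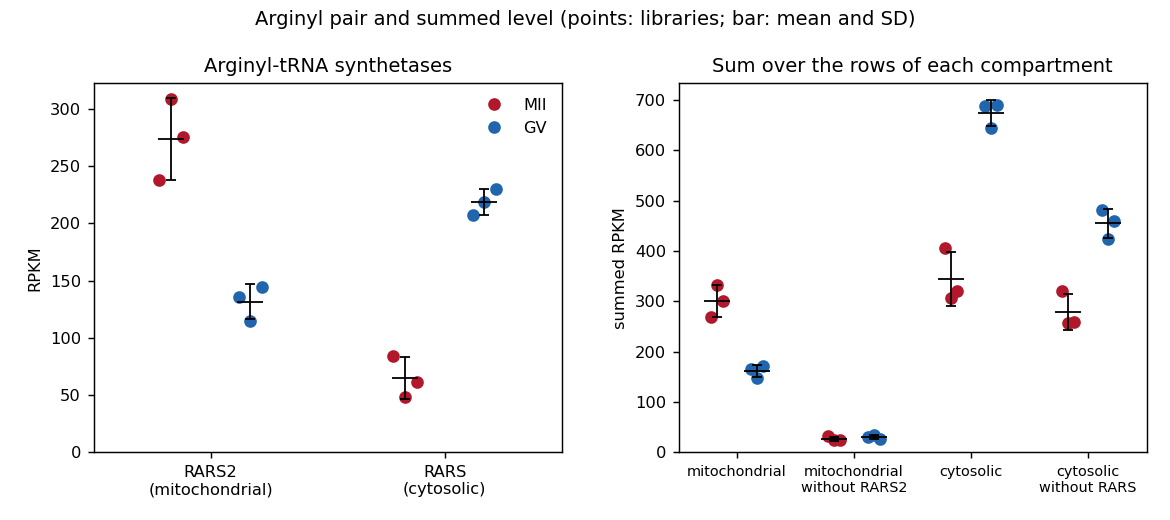
Left, RPKM of RARS2 and RARS in each library. Right, RPKM summed over the mitochondrial and cytosolic rows, with and without the arginyl enzyme. Points are libraries and bars give mean and SD (n = 3 per stage). MII lies above GV for RARS2 and the mitochondrial sum, and below GV for RARS and both cytosolic sums, while the stages overlap for the mitochondrial sum without RARS2.

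Both subunits of the cytosolic phenylalanyl enzyme fell. FARSB, the beta subunit, stood at 26.3, 34.6 and 21.7 RPKM in MII, against 146, 76.6 and 145 RPKM in GV, a log2 change of -2.08 ± 0.30 (SE; limma adjusted p = 0.000941). FARSA, the alpha subunit that holds the catalytic site, stood at 0.422, 0.180 and 0.219 RPKM in MII, against 3.27, 6.31 and 5.14 RPKM in GV, a log2 change of -2.18 ± 0.32 (SE; limma adjusted p = 0.000988). The stages did not overlap for either subunit, and both calls held under every alternative that gave a value. Although the protein pairs the subunits, FARSB mRNA averaged 27.5 RPKM in MII and 123 RPKM in GV, and FARSA mRNA 0.274 RPKM in MII and 4.91 RPKM in GV. FARS2, the single-chain mitochondrial enzyme, did not reach the filter and stood at 0.451, 0.315 and 0.206 RPKM in MII, against 1.28, 0.929 and 1.45 RPKM in GV.

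The other 7 cytosolic falls were in the seryl, asparaginyl, methionyl, histidyl, threonyl, glutaminyl and alanyl enzymes. SARS, the seryl-tRNA synthetase, which also charges the selenocysteine tRNA, stood at 3.99, 2.48 and 2.16 RPKM in MII, against 16.5, 20.7 and 15.9 RPKM in GV. Its log2 change was -2.29 ± 0.30 (SE; limma adjusted p = 0.000548), the lowest of the 26 tested rows with a pseudocount of 1, whereas with a pseudocount of 0.1 FARSA was lower, at -3.75 against -2.62 for SARS. NARS, the asparaginyl-tRNA synthetase, stood at 16.1, 3.75 and 8.66 RPKM in MII, against 34.3, 41.2 and 28.4 RPKM in GV (log2 change -1.93 ± 0.43, SE; limma adjusted p = 0.00703). The MII libraries spread over a wider range than the GV libraries for NARS, and MII15 was the lowest. MARS, the methionyl-tRNA synthetase, which charges the initiator tRNA as well, stood at 3.83, 2.22 and 2.92 RPKM in MII, against 11.7, 15.2 and 13.1 RPKM in GV (log2 change -1.86 ± 0.29, SE; limma adjusted p = 0.00141). HARS, the histidyl-tRNA synthetase, stood at 4.43, 2.51 and 3.47 RPKM in MII, against 15.6, 13.4 and 10.6 RPKM in GV (log2 change -1.68 ± 0.30, SE; limma adjusted p = 0.00272). All MII libraries lay below all GV libraries for these 4 genes. The calls for SARS, MARS and HARS held under all 19 alternatives, and that for NARS was lost only without the 2 columns that match no title (limma adjusted p = 0.0713). MARS overlaps DDIT3 on the opposite strand by 52 nt. DDIT3 stood at 158, 259 and 136 RPKM in MII and 185, 166 and 247 RPKM in GV. Reads in that overlap cannot be assigned to either gene, which also holds for the methionine ratio below.

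TARS, the threonyl-tRNA synthetase, fell less, to 29.1, 22.8 and 22.6 RPKM in MII, against 51.2, 41.4 and 52.5 RPKM in GV (log2 change -0.94 ± 0.23, SE; limma adjusted p = 0.0104). Its call was lost without MII15c (adjusted p = 0.0503) and without the 2 columns that match no title (adjusted p = 0.0609). QARS, the glutaminyl-tRNA synthetase, stood at 1.33 RPKM in MII14c and 0.671 RPKM in MII15c and was listed at 0 in MII15, where 3 reads would have given 0.0607 RPKM, against 4.62, 3.69 and 3.32 RPKM in GV. QARS fell by 1.62 on the log2 scale (SE 0.37; limma adjusted p = 0.00808), a size that depends on the pseudocount of 1. AARS, the alanyl-tRNA synthetase, stood at 0.792, 0.068 and 0.445 RPKM in MII, against 4.13, 2.37 and 1.05 RPKM in GV (log2 change -1.23 ± 0.40, SE; limma adjusted p = 0.0363). Neither gene's stages overlapped, but the AARS call was lost under 8 of 18 alternatives, among them without GV14, GV14c, MII15 or MII15c (adjusted p = 0.13, 0.0736, 0.0902 and 0.0963).

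**Figure D3:**
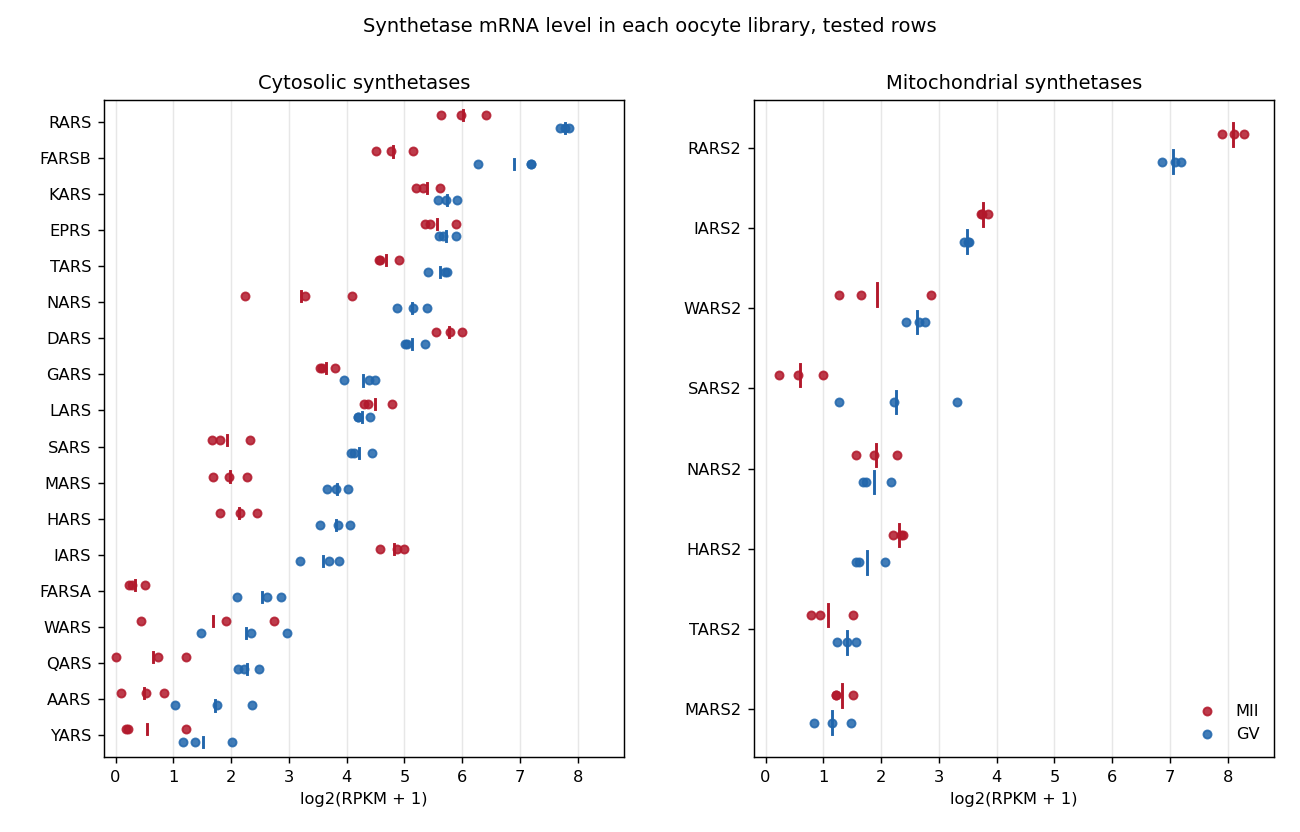
Level of each tested synthetase row in every library, as log2(RPKM + 1), with cytosolic rows on the left and mitochondrial rows on the right, ordered by GV mean. Points are libraries and vertical ticks mark stage means (n = 3 each). RARS2 and IARS lie to the right of their GV points in MII, RARS, FARSB and SARS to the left, and EPRS, KARS and LARS overlap.

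IARS and DARS, both enzymes of the multisynthetase complex, were the cytosolic synthetases that rose. IARS, the isoleucyl-tRNA synthetase, stood at 28.3, 22.9 and 31.0 RPKM in MII, against 13.7, 11.9 and 8.12 RPKM in GV, a log2 change of 1.24 ± 0.27 (SE; limma adjusted p = 0.00688). DARS, the aspartyl-tRNA synthetase, stood at 63.0, 45.7 and 54.3 RPKM in MII, against 31.4, 31.9 and 39.9 RPKM in GV, a log2 change of 0.64 ± 0.23 (SE; limma adjusted p = 0.048). All MII libraries lay above all GV libraries for both genes. The IARS call was lost only without the 2 columns that match no title (adjusted p = 0.0685). The DARS call was lost under 9 of 19 alternatives, among them without GV14, GV14c, GV15, MII14c or MII15c (adjusted p = 0.141, 0.103, 0.0618, 0.135 and 0.132).

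The multisynthetase complex held enzymes of every outcome. Of its 8 synthetase rows, all tested, RARS, MARS and QARS fell, IARS and DARS rose, and EPRS, LARS and KARS stayed short of the threshold. Their median log2 change was -0.26. Falls made up 37.5% and rises 25%, against 26.9% and 13.4% of all tested genes, and QARS passed the filter through its GV level. EPRS, which joins glutamyl and prolyl activity in one chain, stood at 58.4, 39.8 and 42.6 RPKM in MII and 58.5, 49.9 and 47.5 RPKM in GV (log2 change -0.16 ± 0.23, SE; limma adjusted p = 0.615). KARS, the lysyl-tRNA synthetase, stood at 39.0, 48.3 and 35.8 RPKM in MII and 51.7, 58.9 and 46.8 RPKM in GV (log2 change -0.35 ± 0.22, SE; limma adjusted p = 0.234). LARS, the leucyl-tRNA synthetase, averaged 21.7 ± 4.32 RPKM in MII and 18.3 ± 1.59 RPKM in GV (SD, n = 3 each; limma adjusted p = 0.503). The stages overlapped for all 3. KARS passed as lower with library weights (adjusted p = 0.0153), and the EPRS change had the opposite sign under median-ratio scaling and quantile normalization.

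The 3 scaffold proteins of the complex also differed among themselves. AIMP1, which joins the arginyl enzyme to the complex, stood at 26.1, 14.4 and 26.0 RPKM in MII, against 45.3, 42.1 and 52.4 RPKM in GV, and fell (log2 change -1.08 ± 0.28, SE; limma adjusted p = 0.0137). EEF1E1, also called AIMP3, stood at 54.7, 83.7 and 64.2 RPKM in MII, against 38.6, 34.9 and 42.8 RPKM in GV, and rose (log2 change 0.77 ± 0.23, SE; limma adjusted p = 0.0267). The stages did not overlap for either gene. AIMP2 stood at 1.55, 1.65 and 2.03 RPKM in MII and 4.04, 3.19 and 1.90 RPKM in GV, with the stages overlapping (limma adjusted p = 0.228). The AIMP1 call was lost without the 2 columns that match no title (adjusted p = 0.0512). The EEF1E1 call was lost without those columns (adjusted p = 0.154), with the library number as a replicate block (0.0564) and without GV14, GV14c, MII15 or MII15c (0.0732, 0.0657, 0.0558 and 0.0768).

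Among mitochondrial enzymes other than RARS2, levels were low and SARS2 alone passed the test. SARS2, the mitochondrial seryl-tRNA synthetase, stood at 0.994, 0.173 and 0.483 RPKM in MII, against 3.66, 8.95 and 1.40 RPKM in GV, a log2 change of -1.67 ± 0.50 (SE; limma adjusted p = 0.0267). The stages did not overlap, although the highest GV library held 6.38 times the lowest. Its call was lost under 7 of 18 alternatives, among them without GV14, GV14c, MII15 or MII15c (adjusted p = 0.0697, 0.0629, 0.0663 and 0.0798). IARS2, the mitochondrial isoleucyl enzyme, had the tightest values of all tested rows, with 13.4, 12.2 and 12.4 RPKM in MII and 9.79, 10.4 and 10.4 RPKM in GV. All its MII libraries lay above all its GV libraries, but the log2 change of 0.28 ± 0.24 (SE) did not pass the test (limma adjusted p = 0.38).

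The other 5 tested mitochondrial rows did not pass the test either. HARS2, the histidyl enzyme, stood at 4.23, 4.08 and 3.60 RPKM in MII, above its 1.97, 2.08 and 3.18 RPKM in GV in every library (log2 change 0.56 ± 0.30, SE; limma adjusted p = 0.171). It passed only under quantile normalization (adjusted p = 0.0302). MARS2, the methionyl enzyme, stood at 1.32, 1.87 and 1.34 RPKM in MII and 1.78, 0.794 and 1.215 RPKM in GV. NARS2, the asparaginyl enzyme, stood at 2.68, 1.97 and 3.86 RPKM in MII and 3.51, 2.23 and 2.34 RPKM in GV. TARS2, the threonyl enzyme, stood at 1.86, 0.727 and 0.925 RPKM in MII and 1.67, 1.94 and 1.35 RPKM in GV. The stages overlapped for these genes, with log2 changes of 0.17 for MARS2, 0.04 for NARS2 and -0.32 for TARS2 (limma adjusted p = 0.699, 0.93 and 0.457). Each of these 3 changed sign under at least one alternative. WARS2, the tryptophanyl enzyme, stood at 6.30, 2.16 and 1.41 RPKM in MII and 5.76, 5.34 and 4.39 RPKM in GV, a log2 change of -0.68 ± 0.43 (SE; limma adjusted p = 0.232). MII14c alone was not below every GV library, and WARS2 passed as lower without it (log2 change -1.15, adjusted p = 0.0346) and with library weights (-1.24, adjusted p = 0.00658).

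Cytosolic GARS, WARS and YARS were also not called. GARS, the glycyl-tRNA synthetase, averaged 11.5 ± 1.27 RPKM in MII and 18.6 ± 3.58 RPKM in GV (SD, n = 3 each), with every MII library below every GV library (log2 change -0.64 ± 0.26, SE; limma adjusted p = 0.0784). It passed under 2 of 19 alternatives, at an adjusted p of 0.0267 with library weights and 0.0448 when the letter c was fitted as a factor. WARS, the tryptophanyl-tRNA synthetase, varied most within a stage among the tested rows with no 0, with 5.69, 0.350 and 2.75 RPKM in MII and 4.06, 6.83 and 1.79 RPKM in GV. Its highest MII library held 16.2 times its lowest, whereas the median ratio over those rows was 1.73 in MII and 1.44 in GV. WARS passed as lower with the letter c fitted as a factor (log2 change -1.06, adjusted p = 0.0362), but without MII15 its change was 0.06. YARS, the tyrosyl-tRNA synthetase, stood at 0.134, 1.33 and 0.166 RPKM in MII and 1.599, 3.03 and 1.25 RPKM in GV (log2 change -0.98 ± 0.39, SE; limma adjusted p = 0.0742). MII15 was its only MII library inside the GV range, and YARS passed as lower without that library (adjusted p = 0.0209) and with library weights (adjusted p = 0.00162).

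For amino acids with an enzyme in each compartment, the ratio of the mitochondrial to the cytosolic RPKM can be read within each library. Library scaling cancels there, but differences between genes in how well their tails were primed do not. Both enzymes were tested for 8 amino acids. The arginine ratio, RARS2 to RARS, was 2.81, 6.33 and 4.45 in MII, against 0.656, 0.524 and 0.630 in GV. The mitochondrial enzyme thus had the higher RPKM in MII and the lower RPKM in GV. The histidine ratio was 0.956, 1.63 and 1.04 in MII, against 0.126, 0.155 and 0.3 in GV. The methionine ratio was 0.344, 0.844 and 0.459 in MII, against 0.152, 0.0523 and 0.0926 in GV. In these 3 pairs, and in the asparagine pair with 0.166, 0.525 and 0.446 in MII against 0.102, 0.0542 and 0.0826 in GV, every MII ratio lay above every GV ratio. The isoleucine ratio went the other way, with 0.474, 0.532 and 0.399 in MII against 0.717, 0.88 and 1.28 in GV. The serine, threonine and tryptophan ratios overlapped between stages. Each of the 5 pairs without overlap had a two-sided exact permutation p of 0.1, the smallest possible here (0.145 after Benjamini-Hochberg adjustment over the same 16 comparisons).

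**Figure D4:**
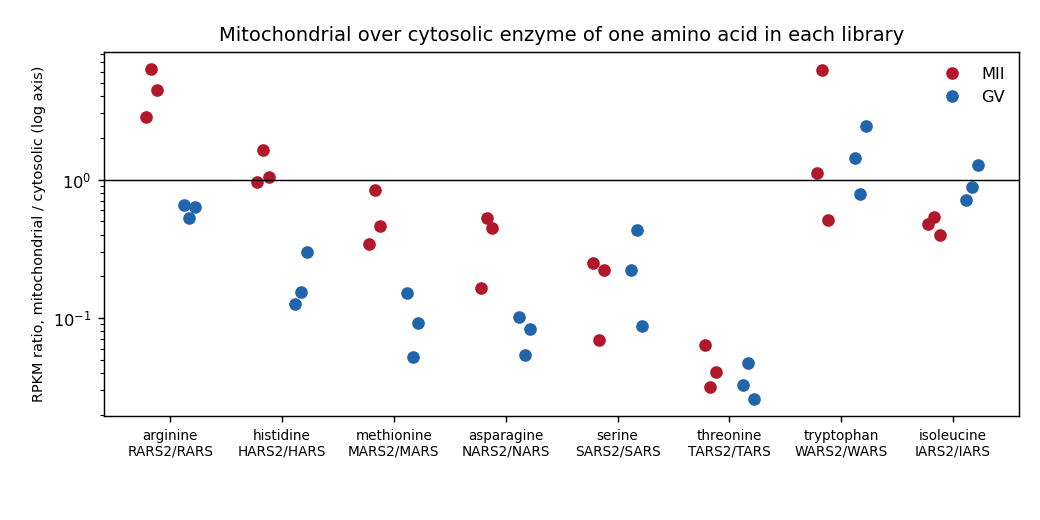
Ratio of the mitochondrial to the cytosolic synthetase RPKM of one amino acid in each library, on a log axis, for the 8 amino acids with both rows tested. Points are libraries and the horizontal line marks equal levels. MII ratios lie above GV ratios for arginine, histidine, methionine and asparagine and below them for isoleucine, and the stages overlap for serine, threonine and tryptophan.

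In 3 of the 4 pairs with a higher ratio in MII, the cytosolic enzyme fell and the mitochondrial enzyme did not pass the test, while in the arginine pair both passed. In the isoleucine pair the cytosolic enzyme rose. HARS and HARS2 are neighbours on chromosome 7, transcribed away from each other, with 339 nt between their coding regions. HARS lies on the minus strand from 53487445 to 53500166 and HARS2 on the plus strand from 53500506 to 53506588. Their values are those given above, a fall for HARS and no call for HARS2.

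Synthetases belong to structural class I or class II, which have unrelated catalytic folds. Of 12 tested class I rows (EPRS counted here by its glutamyl part), 3 fell (25%) and 2 rose (16.7%), with a median log2 change of -0.36. Of 14 tested class II rows, 8 fell (57.1%) and 1 rose (7.14%), with a median log2 change of -1.08. Over all tested genes the shares were 26.9% lower and 13.4% higher, and those of class I lay near them. AARS, FARSA and SARS2 in class II, and QARS and YARS in class I, passed the filter through their GV level. These shares therefore describe the rows that passed. Summed class I levels were 469, 460 and 452 RPKM in MII and 474, 463 and 483 RPKM in GV, with 1 MII library inside the GV range (exact permutation p = 0.2). Summed class II levels were 206.5, 178 and 169 RPKM in MII, against 380, 329 and 377 RPKM in GV, with no overlap (exact permutation p = 0.1, the smallest possible). RARS and RARS2 are both class I, and their opposite changes enter the same sum.

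The 11 rows below the filter, 3 cytosolic and 8 mitochondrial, held at most 1.45 RPKM in any library. They were CARS and VARS, which charge cysteine and valine, a second NARS row, and AARS2, both CARS2 rows, EARS2, FARS2, LARS2, VARS2 and YARS2. One CARS2 row was listed at 0 in all 6 libraries. The second NARS row is a 2-exon model within TMCO7 on chromosome 18, at 0 to 0.070 RPKM, and how the counting shared reads between it and the multi-exon NARS gene is not given in the sources used here. By mean level, 2 of 16 mitochondrial rows (RARS2 and IARS2) reached 10 RPKM in MII and the same number in GV. Of 21 cytosolic rows, 9 reached it in MII and 13 in GV. Mean levels below 1 RPKM were found in 7 cytosolic rows in MII and 3 in GV, and in 9 mitochondrial rows in MII and 7 in GV.

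Most of these values rested on many reads, although the number of transcripts behind those reads is not known. At the recovered depths, 115 of the 156 values of tested rows rested on at least 100 reads, reckoned on coding length. Only 6 rested on fewer than 10 reads, namely AARS, FARSA, QARS and SARS2 in MII15, and YARS in MII14c and MII15c.

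The deposited annotation carries transcripts past the coding region by lengths that vary among the tested rows, a measure that includes the 3' untranslated region and any intron in it. The median was 2660 nt for the 3 rows that rose (935 nt for DARS, 2660 nt for IARS and 7161 nt for RARS2), 340 nt for the 11 that fell (66 to 1379 nt) and 709.5 nt for the 12 not called. The groups overlap, since FARSB at 1379 nt and NARS at 1003 nt fell and lie above DARS. Over all tested genes with a coding record it was 1468 nt for those that rose, 545.5 nt for those that fell and 998 nt for those not called. Median coding length differed little by call among the synthetases, at 1737 nt for rows that rose, 1770 nt for rows that fell and 1827 nt for rows not called. Single rows ranged from 1083 nt (WARS2) to 4536 nt (EPRS). Over all tested genes with a coding record the medians were 1530 nt, 945 nt and 1449 nt, in the same order. Some of these ends come from transcript discovery, and how far they depend on a gene's level was not tested.

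TARSL2 and PARS2, which are outside the list, were low. TARSL2, a threonyl-tRNA synthetase paralog, stood at 0.069, 0.355 and 1.67 RPKM in MII and 1.62, 0.990 and 2.08 RPKM in GV, with the stages overlapping (limma adjusted p = 0.199). PARS2, the mitochondrial prolyl enzyme, did not reach the filter, with 0.596 to 0.702 RPKM in MII and 0.884 to 2.04 RPKM in GV.

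Genes that act on charged or uncharged transfer RNA were read from lists chosen with earlier results of these data known. Of 5 tested editing and deacylase genes, which remove wrongly attached amino acids or recycle peptidyl-tRNA, 3 fell and 0 rose, with a median log2 change of -2.03. Over all tested genes 26.9% fell and 13.4% rose, against 60% and 0% of this list. AARSD1, which clears serine wrongly attached to alanine tRNA, stood at 10.4, 8.19 and 9.11 RPKM in MII, against 43.1, 57.4 and 42.2 RPKM in GV (log2 change -2.24 ± 0.24, SE; limma adjusted p = 0.000193). DTD1, a D-aminoacyl-tRNA deacylase, averaged 4.62 ± 0.38 RPKM in MII and 23.8 ± 2.47 RPKM in GV (SD, n = 3 each; limma adjusted p = 0.000296). PTRH2, a peptidyl-tRNA hydrolase, averaged 2.48 ± 1.69 RPKM in MII and 12.2 ± 2.04 RPKM in GV (SD, n = 3 each; limma adjusted p = 0.00408). No MII library reached a GV library for these 3 genes. The 3 tested genes of mitochondrial charging beyond the synthetases, GATC and PET112 of the glutamyl-tRNA amidotransferase and the methionyl-tRNA formyltransferase MTFMT, did not pass the test.

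Of 16 tested genes of tRNA end processing and export, 8 fell and 2 rose (median log2 change -0.78). These shares, 50% and 12.5%, compare with 26.9% and 13.4% of all tested genes. POP7 and ELAC2, both among the falls, had means below 1 RPKM in MII only, so they passed the filter through their GV level. XPOT, the nuclear export receptor of tRNA, stood at 28.5, 40.1 and 31.8 RPKM in MII, against 12.4, 9.74 and 13.5 RPKM in GV, and rose (log2 change 1.42 ± 0.25, SE; limma adjusted p = 0.00245). POP5 and POP7 are protein subunits of RNase P, which trims the 5' end of precursor tRNA. POP5 stood at 2.12, 1.98 and 1.77 RPKM in MII, against 20.6, 33.1 and 14.9 RPKM in GV (log2 change -2.94 ± 0.34, SE; limma adjusted p = 0.000264). POP7 stood at 1.09, 1.25 and 0.528 RPKM in MII, against 8.26, 5.90 and 4.70 RPKM in GV (log2 change -1.89 ± 0.33, SE; limma adjusted p = 0.00234). HSD17B10, a subunit of the mitochondrial RNase P, averaged 7.23 ± 1.07 RPKM in MII and 36.9 ± 2.66 RPKM in GV (SD, n = 3 each; limma adjusted p = 0.000195). Stages did not overlap for these 4 genes.

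In the selenocysteine pathway, where seryl-tRNA made by SARS is converted further, 1 of 5 tested genes fell and 1 rose. That is 20% each, against 26.9% lower and 13.4% higher over all tested genes. PSTK, the kinase that phosphorylates the seryl-tRNA, stood at 4.12, 0.239 and 3.12 RPKM in MII, against 6.59, 13.9 and 7.67 RPKM in GV (log2 change -1.74 ± 0.54, SE; limma adjusted p = 0.0297). SEPSECS, the next enzyme, stood at 57.1, 18.8 and 37.7 RPKM in MII, against 15.2, 14.1 and 11.5 RPKM in GV (log2 change 1.29 ± 0.38, SE; limma adjusted p = 0.0234). The stages did not overlap for either gene. The PSTK call was lost without GV14, GV14c or GV15 (adjusted p = 0.0539, 0.0942 and 0.0521), with a pseudocount of 0.1 (0.0581), no filter (0.0909), TPM scaling (0.0528) and without the 2 columns that match no title (0.128). The SEPSECS call was lost without GV14, GV15, MII14c or MII15c (adjusted p = 0.0527, 0.0677, 0.07 and 0.0817), with no filter (0.0647) and without the 2 columns that match no title (0.136).

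Elongation factors, which deliver charged tRNA to the ribosome, had 14 tested rows, of which 8 fell and 0 rose (median log2 change -1.21). The shares were 57.1% and 0%, against 26.9% and 13.4% of all tested genes. However, 6 of the 14 rows carry the symbol EEF1A1 and may share reads. Some of these EEF1A1 rows, called rows among them, had means below 1 RPKM in MII only. They passed the filter through their GV level. TUFM, the mitochondrial factor that delivers charged tRNA, stood at 1.88, 1.19 and 0.720 RPKM in MII, against 37.6, 35.5 and 24.6 RPKM in GV (log2 change -3.90 ± 0.32, SE; limma adjusted p = 4.65e-05). EEF1B2, EEF1G and EEF1D are subunits of the exchange factor that recharges EEF1A with GTP, and all 3 fell. EEF1B2 stood at 41.8, 39.9 and 38.7 RPKM in MII, against 195, 114 and 184 RPKM in GV (log2 change -1.97 ± 0.24, SE; limma adjusted p = 0.00041). EEF1G stood at 35.4, 19.9 and 22.6 RPKM in MII, against 81.6, 139 and 64.4 RPKM in GV (log2 change -1.80 ± 0.33, SE; limma adjusted p = 0.00287). EEF1D stood at 4.07, 0.207 and 1.04 RPKM in MII, against 31.8, 63.7 and 8.18 RPKM in GV (log2 change -3.54 ± 0.72, SE; limma adjusted p = 0.00481). The stages did not overlap for these 3 genes or for TUFM, and the EEF1D call was lost without the 2 columns that match no title (adjusted p = 0.0573).

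The amino acid response, in which uncharged tRNA activates the kinase GCN2 and through it ATF4, had 12 tested genes, of which 3 fell and 2 rose (median log2 change -0.07). These shares, 25% and 16.7%, lay near the 26.9% and 13.4% of all tested genes. ASNS, the asparagine synthetase, stood at 14.2, 14.4 and 8.32 RPKM in MII, against 42.4, 54.3 and 53.1 RPKM in GV (log2 change -1.96 ± 0.27, SE; limma adjusted p = 0.000733). SHMT2, a mitochondrial serine hydroxymethyltransferase, stood at 11.3, 7.43 and 5.71 RPKM in MII, against 29.5, 58.0 and 29.4 RPKM in GV (log2 change -2.10 ± 0.35, SE; limma adjusted p = 0.00178). CHAC1, a glutathione-degrading enzyme, stood at 1.38, 0.199 and 1.98 RPKM in MII, against 4.67, 10.4 and 5.60 RPKM in GV (log2 change -1.89 ± 0.43, SE; limma adjusted p = 0.0083). PSPH, the last enzyme of serine synthesis, stood at 131, 151 and 143 RPKM in MII, against 68.6, 70.0 and 76.7 RPKM in GV, and rose (log2 change 0.97 ± 0.19, SE; limma adjusted p = 0.00375). Without the 2 columns that match no title, the PSPH call was lost (limma adjusted p = 0.0507). EIF2AK4, the gene of GCN2, was the other rise (limma adjusted p = 0.0309). ATF4 itself averaged 0.935 ± 1.25 RPKM in MII and 1.94 ± 0.46 RPKM in GV (SD, n = 3 each) and did not pass the test (limma adjusted p = 0.189).

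**Figure D5:**
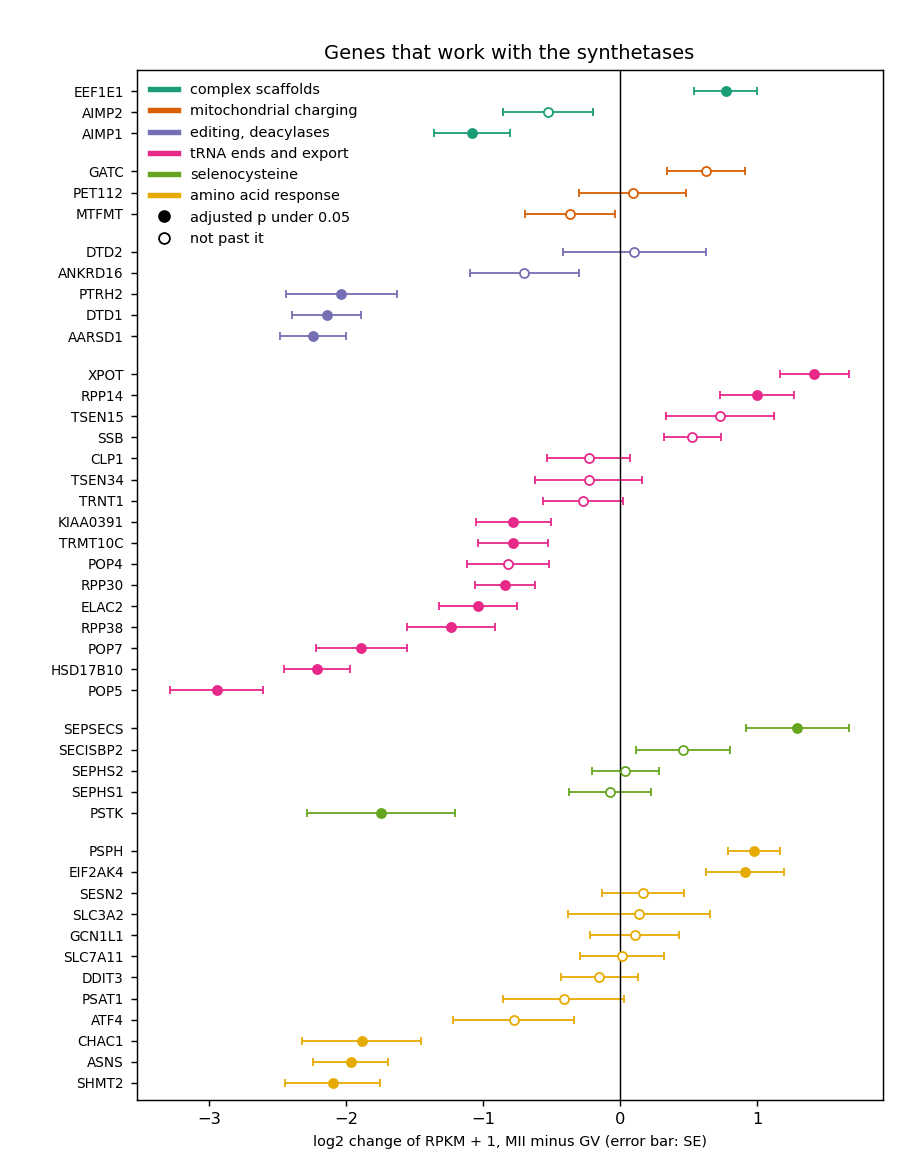
Log2 change of RPKM + 1, MII minus GV, with error bars of 1 SE from limma (n = 3 libraries per stage), for tested genes that work with the synthetases, coloured by list. Filled points passed the adjusted p threshold of 0.05. EEF1E1, XPOT, RPP14, SEPSECS, PSPH and EIF2AK4 are the filled points right of 0, and AIMP1, AARSD1, POP5 and ASNS are among those left of 0.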

How the data were processed

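The authors deposited RPKM for 20707 genes in 6 libraries, reads scaled to gene model length and library total, per the file headers, and a second file with the positions of genes, transcripts and coding parts, which transcript discovery had extended and from which other values (positions and lengths, counted from 1) were taken. The sources used here do not give aligner, counting or build, so no count model was run. Stage came from the sample titles, and for the 2 columns that match none from the column name. All 8671 genes averaging at least 1 RPKM were compared, MII minus GV, on log2(RPKM + 1), a scale that understates changes of low genes. The fit used limma 3.58.1 and R 4.3.3 (lmFit, then eBayes allowing for a mean-variance trend). Benjamini-Hochberg adjustment covered all of these genes, with a threshold of 0.05. The test was tried on simulated data. Depth was found from the low RPKM of gene models that are coding sequence alone, and floors of 3 reads cover counting error only. Sums, shares and ratios were compared by exact permutation over libraries. Members, lists and tests were chosen with earlier results of these data known. Library values are given for synthetase rows past the threshold, their tested partners of the same amino acid and synthetase rows averaging at least 50 RPKM, and values for up to 4 called genes of smallest p per list. Values of other genes, such as GARS, YARS and KARS, were added after they were seen. In all, 19 alternatives were tried. One gene of the fixed lists is not reported here.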

Additional observations from a re-analysis of the deposited data

How the results depend on the processing

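Leaving out one library at a time gave 8 to 12 rows lower and 2 to 3 higher in MII. Of these, 8 to 10 lower rows and 1 to 2 higher rows were cytosolic, and 0 to 2 lower rows were mitochondrial. Without the 2 columns that match no title, 6 rows were lower, all 6 cytosolic, and 0 were higher, with 0 mitochondrial rows called in either direction. A minimum mean of 5 RPKM left 7 rows lower and 0 mitochondrial rows lower, and it took SARS2, FARSA, QARS and AARS out of the test. Quantile normalization called 9 rows lower and 4 higher, with 0 mitochondrial rows lower and 2 higher. With no filter, 1 cytosolic row was higher and 2 mitochondrial rows lower. These were FARS2 and a CARS2 row (limma adjusted p = 0.0382 and 0.0161), both below the filter of the main test, while SARS2 was not called (0.0884). Library weights called 15 rows lower, 13 cytosolic and 2 mitochondrial, and 3 higher. The letter c as a term called 13 lower, 12 of them cytosolic, and 3 higher. Without a mean-variance trend 1 cytosolic row was higher. Apart from rows that a filter removed or added, the causes were not tested.

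The median log2 change of cytosolic rows, -1.10, was -1.85 with a pseudocount of 0.1. That of mitochondrial rows, 0.10, was 0.67 with a minimum mean of 5 RPKM, which kept only RARS2 and IARS2 of these rows. It was 0.54 with quantile normalization, and its sign turned without GV14c (-0.02) and without the 2 columns that match no title (-0.06). The median of all tested genes, -0.165, was -0.001 with median-ratio scaling and 0.221 with quantile normalization.

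No called row changed direction under any of the 19 alternatives. Sign changes were seen in rows not called, EPRS at 0.053 (median-ratio scaling) and 0.061 (quantile normalization), MARS2 at -0.085 (library weights), TARS2 at 0.25 (quantile normalization) and NARS2 at 0 (letter c as a term) and -0.23 (without the 2 columns that match no title). Leaving out one library moved NARS2 between -0.15 and 0.21 and WARS between -1.092 and 0.062. Of the values of single genes under the alternatives, 824 kept their direction and side of the threshold, 52 lost the threshold, 10 gained it and 10 changed sign.

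The numbers 14 and 15 in the library names were tried as a replicate block. Deviations of same-numbered libraries correlated at -0.008, 0.33, 0.427 and -0.226, and those of differently numbered libraries at -0.409 to 0.261. Deviations from a stage mean cancel within the stage, so these correlations depend on each other. They cannot show whether the numbers pair the libraries. The 4 pairs of an MII and a GV library alike in the letter c correlated at 0.067 to 0.427 and the 5 unlike at -0.409 to -0.008, and what the letter stands for is not stated. With the block, 10 rows were lower and 2 higher, of which 1 higher row was cytosolic.

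With 3 libraries per stage, exact permutation cannot go below 0.1, and values under 10 reads limit AARS, FARSA, QARS, SARS2 and YARS.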
